A study of Rattus norvegicus with 6 samples.

Results

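The genes described here encode proteins of the desmosome and of the adherens plaque, the structures that anchor the cytoskeleton of one heart muscle cell to that of the next. They were chosen by symbol from a list of 10: Dsp, Pkp2, Pkp4, Jup, Dsg2, Dsc2, Ctnna1, Ctnna3, Tjp1 and Nrap. Of these, 6 matched a row by symbol among the 17089 genes measured, namely Pkp2, Jup, Dsc2, Ctnna1, Tjp1 and Nrap. Dsp, Pkp4, Dsg2 and Ctnna3 were not analysed here. All 6 measured genes lay far above the minimum mean of 10 normalized counts used for testing, in both groups, with 399 to 33734 reads behind each library's value.

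The cells were primary cultures of ventricular heart muscle cells prepared at postnatal day 1 to 3 from rats of the Sprague Dawley strain, which also hold non-muscle cells of the ventricle. The Tbx18 group, 3 libraries, received an adenovirus carrying Tbx18, a T-box factor of the epicardium and of the embryonic venous pole where the sinus node forms, joined through an internal ribosome entry site to GFP. The GFP group, 3 libraries, received an adenovirus carrying GFP alone, so that both groups were given a virus with GFP. In the headings of the deposited counts every library, whether Tbx18 or GFP, was marked as unpaced. Virus was given on the day of isolation and the cells were harvested for RNA on day 4. The study compared Tbx18-induced pacemaker-like cells with ventricular muscle cells. The labels do not say whether the libraries of a group came from separate isolations, so the p-values speak for the variation among the libraries at hand, part or all of which may be technical.

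In heart muscle, desmosomes and adherens junctions meet in the intercalated disc, where neighbouring cells are joined end to end. Desmosomal cadherins such as desmocollin bind plakoglobin and plakophilin, which pass the load through desmoplakin to the desmin filaments. Classical cadherins bind beta-catenin or plakoglobin, which pass it through alpha-catenin to actin at the ends of the myofibrils. Inherited loss of plakophilin-2, plakoglobin or desmocollin-2 is known in people to cause arrhythmogenic cardiomyopathy.

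Values are normalized counts, the read counts of a gene divided by 1 size factor per library. The libraries held 17074483 to 19800300 reads in Tbx18 and 17460507 to 18934232 in GFP. Tbx18 itself averaged 6059 ± 157 normalized counts in Tbx18 libraries and 292 ± 22.1 in GFP libraries (SD, n = 3 each), in accord with the labels of all 6. Differences were tested with limma on log2 of the normalized count plus 1 over 11230 genes, and a gene was called at a Benjamini-Hochberg adjusted p under 0.05. By this rule 46.0% of all genes tested were called, 23.5% lower and 22.5% higher in Tbx18. With libraries scaled to equal reads the split was 1351 lower and 4793 higher, in place of 2639 and 2525, and the median over all genes moved to a log2 fold change of 0.27, against 0.01 as deposited.

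Of the 6 plaque genes, 5 fell in Tbx18 libraries and 1, Jup, rose. Pkp2, Ctnna1, Dsc2 and Nrap fell to between 31.6% and 48.4% of their GFP means, Tjp1 fell to 76.5% and Jup stood at 122%. A fall of at least 1 on the log2 scale was reached by 4 of the 6, against 4.22% of all genes tested. This count depends on the scaling. With equal reads Dsc2, Ctnna1 and Nrap were at -0.90, -0.96 and -0.77. Relative to the median of all genes these were -1.17, -1.23 and -1.04. After quantile normalization Ctnna1 and Nrap were at -0.85 and -0.77, and with upper-quartile scaling Nrap was at -0.96. The median log2 fold change of the 6 was -1.10, against 0.01 over all genes. The values of the groups did not overlap for any of the 6, as for 57.2% of all genes tested. These are bulk cultures, in which fewer muscle cells and less RNA per cell cannot be told apart.

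**Figure D1:**
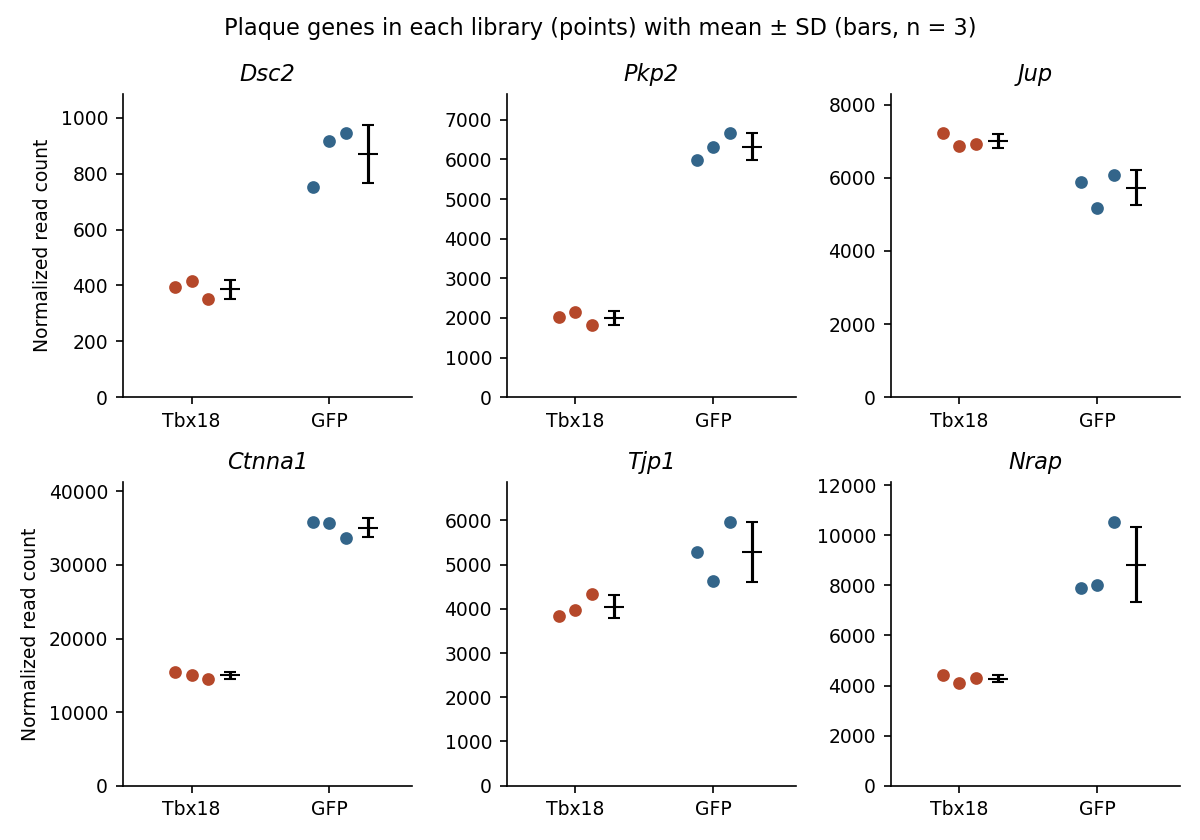
Normalized read count (vertical axis, from 0) of each of the 6 measured plaque genes in the 3 Tbx18 libraries (left) and the 3 GFP libraries (right), 1 point per library, with the mean ± SD beside them. Pkp2, Ctnna1, Dsc2, Nrap and Tjp1 sit lower in Tbx18 and Jup sits higher, and for Tjp1 the highest Tbx18 library, at 4336, comes close to the lowest GFP library, at 4621.

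Among the desmosomal proteins, desmocollin-2, encoded by Dsc2, is the transmembrane cadherin. Its counts were 394, 415 and 350 in Tbx18 libraries, against 752, 918 and 946 in GFP libraries. Every Tbx18 library was well under every GFP library. The fall was 2.26-fold (log2 fold change -1.17, SE 0.12, limma adjusted p = 6.77e-05), with the fewest reads of the 6 genes behind it.

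Plakophilin-2, encoded by Pkp2, is the main armadillo-repeat plakophilin of heart muscle and links the desmosomal cadherins to desmoplakin. Pkp2 had 2032, 2143 and 1817 normalized counts in Tbx18 libraries, against 5987, 6304 and 6666 in GFP libraries. The groups were separated by 60.8% of the GFP mean, the widest gap of the 6 genes. It fell 3.16-fold on the means. Its log2 fold change was -1.66, with an SE of 0.09 and a limma adjusted p = 2.78e-06, and 0.953% of all genes tested lay lower.

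Plakoglobin, encoded by Jup, is the plaque protein shared by desmosomes and adherens junctions and a close relative of beta-catenin. Jup had 7221, 6865 and 6929 normalized counts in Tbx18 libraries, against 5895, 5181 and 6088 in GFP libraries. All Tbx18 libraries were higher than all GFP libraries, but by a gap of only 13.6% of the GFP mean. The rise was 1.22-fold (0.30 on the log2 scale, SE 0.09, limma adjusted p = 0.0188). Its size depends on the scaling, with a log2 fold change of 0.56 with equal reads and 0.57 after quantile normalization. Relative to the median of all genes, the rise was 0.29 with equal reads, as with the deposited scaling, and 0.58 after quantile normalization. The Jup call was lost without Tbx18 replicate 1, without Tbx18 replicate 2 and without Tbx18 replicate 3, with adjusted p = 0.0887, 0.0552 and 0.0514 in limma; over all alternatives adjusted p ran from 0.000713 to 0.0887.

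The stretches of 250 bases before the start of Dsc2 and of Jup are shown. These 2 plaque genes moved in opposite directions and have a promoter in the RefSeq table for build GRCr8, as 3 of the 6 do. The third is Tjp1, which also fell and would have fitted this choice as well as Dsc2, but whose stretch is not printed. That of Dsc2 is chr18:11757467-11757716 and that of Jup chr10:85827430-85827679, both on the minus strand and written 5′ to 3′ along the gene. Capitals mark the T-box core motif AGGTGT, searched on both strands.
Dsc2: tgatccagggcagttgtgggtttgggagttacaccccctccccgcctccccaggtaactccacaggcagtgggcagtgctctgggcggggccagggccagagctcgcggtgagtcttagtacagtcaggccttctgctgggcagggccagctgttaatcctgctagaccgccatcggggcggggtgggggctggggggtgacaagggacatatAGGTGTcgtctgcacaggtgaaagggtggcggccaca
Jup: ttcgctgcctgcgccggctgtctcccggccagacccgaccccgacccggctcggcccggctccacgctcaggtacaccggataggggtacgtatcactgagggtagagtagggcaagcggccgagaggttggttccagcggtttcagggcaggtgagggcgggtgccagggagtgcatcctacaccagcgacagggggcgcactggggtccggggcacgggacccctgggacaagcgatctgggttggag
The core occurred once before Dsc2, starting 37 bases before the start of the gene, and not before Jup or Tjp1; 11.6% of 33469 such stretches hold it. The longer form AGGTGTGA, which contains the core and is held by 0.959% of the stretches, was in none of the 3. Neither were the GATA letters AGATAA, held by 10.3%, or the M-CAT letters CATTCC, held by 12.1%, each searched on both strands. The Dsc2 and Jup stretches were rich in G and C, at 64.4% and 68.8%, against 30.4% for Tjp1 and a median of 51.2% over all stretches. A match of letters is a description and not a binding site.

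Among the proteins of the adherens plaque, alpha-E-catenin, encoded by Ctnna1, couples the cadherin complex to actin. Ctnna1 had 15414, 14972 and 14541 normalized counts in Tbx18 libraries, against 35886, 35750 and 33606 in GFP libraries. Both groups were tight, with coefficients of variation of 2.91% in Tbx18 and 3.65% in GFP. It fell 2.34-fold (log2 fold change -1.23, SE 0.09, limma adjusted p = 1.16e-05).

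Zonula occludens-1, encoded by Tjp1, is a scaffold that binds alpha-catenin, actin and connexin-43 at the rim of gap junctions. Tjp1 had 3835, 3970 and 4336 normalized counts in Tbx18 libraries, against 5286, 4621 and 5973 in GFP libraries. The groups did not overlap, but their gap was 5.39% of the GFP mean, the narrowest of the 6 genes. The fall was 1.31-fold (log2 fold change -0.38, SE 0.10, limma adjusted p = 0.0139). It was not called without Tbx18 replicate 1 (adjusted p = 0.0653), without Tbx18 replicate 2 (0.0533), with equal reads per library (log2 fold change -0.12, adjusted p = 0.387) or after quantile normalization (-0.15, adjusted p = 0.252); over all alternatives the limma, edgeR and DESeq2 adjusted p ran from 0.0019 to 0.387. Relative to the median of all genes, its log2 fold change with equal reads was -0.39, as it was with the deposited scaling.

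The nebulin-related anchoring protein, encoded by Nrap, is a muscle LIM protein that ties the ends of myofibrils to the adherens plaque. Nrap had 4408, 4115 and 4304 normalized counts in Tbx18 libraries, against 7902, 8030 and 10548 in GFP libraries. The Tbx18 libraries were close together while GFP replicate 3 stood above the other GFP libraries, giving coefficients of variation of 3.48% and 16.9%. It fell 2.06-fold (-1.03 on the log2 scale, SE 0.11, limma adjusted p = 0.000108). Without GFP replicate 3 the log2 fold change was -0.90 (limma adjusted p = 0.000124).

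**Figure D2:**
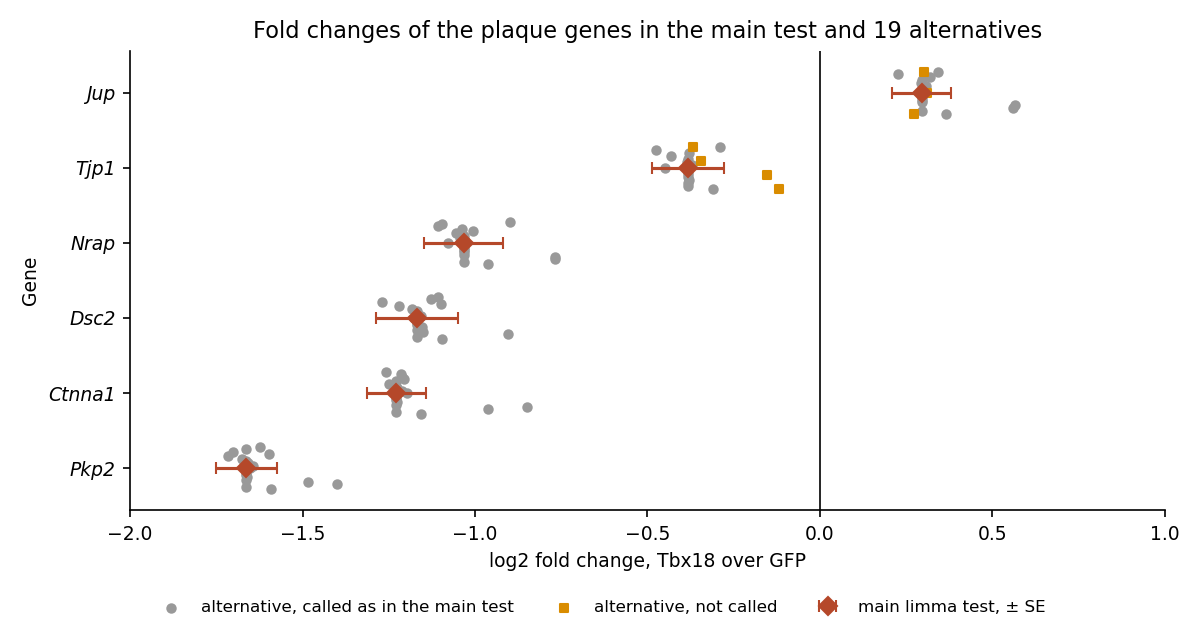
Log2 fold change of each plaque gene, Tbx18 over GFP (horizontal axis), in the main limma test with its SE (diamonds) and in 19 alternatives (circles where the gene was called as in the main test, squares where it was not called; vertical offsets only separate the points). Pkp2, Ctnna1, Dsc2 and Nrap stay at or below -0.77 and called, while Jup and Tjp1, at 0.30 and -0.38, each hold squares.

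The sizes of the changes differed among the genes. Within a library the ratio of 2 genes' counts does not depend on the library's scaling, and a difference in log2 ratio between groups does not depend on gene length. Each such difference is the difference between the 2 genes' log2 fold changes, so its direction restates them and is not separate evidence. All 15 pairs of the 6 genes were compared in this way. This choice was made after 4 of the 6 pairs first listed proved to hold a gene with no row under its symbol. With 3 libraries against 3 the exact two-sided permutation test cannot go below p = 0.1, or below 0.125 when adjusted over the 15 pairs.

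The log2 ratio of every other member to Pkp2 was higher in Tbx18 libraries, as it must be for the gene with the lowest log2 fold change. The log2 ratio of Dsc2 to Pkp2 was -2.37 ± 0.004 in Tbx18 and -2.86 ± 0.11 in GFP (SD, n = 3 each), a difference of 0.49. The ratio of Ctnna1 to Pkp2 was 2.91 ± 0.10 in Tbx18 and 2.47 ± 0.13 in GFP, a difference of 0.44, and that of Nrap to Pkp2 differed by 0.63. In these pairs the groups did not overlap and the exact permutation p was 0.1 (adjusted 0.125), the smallest the design allows.

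The log2 ratio of Jup to each of the 5 other genes was higher in Tbx18, with differences from 0.68 against Tjp1 to 1.96 against Pkp2. This direction follows from Jup being the only plaque gene that rose. Its log2 ratio to Pkp2 was 1.81 ± 0.13 in Tbx18 and -0.15 ± 0.13 in GFP. Its ratio to Ctnna1 was -1.10 ± 0.03 in Tbx18 and -2.62 ± 0.16 in GFP, a difference of 1.52. The ratio of Tjp1 to each of the 4 genes with the largest falls was also higher, by 0.65 against Nrap to 1.28 against Pkp2, again as the fold changes require. Each of these comparisons had an exact permutation p of 0.1 and groups that did not overlap.

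The ratios among Dsc2, Ctnna1 and Nrap overlapped between the groups. Their log2 ratios differed between groups by 0.06 for Dsc2 over Ctnna1, 0.14 for Nrap over Dsc2 and 0.19 for Nrap over Ctnna1, with overlapping values and exact permutation p of 0.9, 0.4 and 0.4. Of the pairs first listed 2 could be run, of which 1 is given here. The log2 ratio of Jup to its relative Ctnnb1, beta-catenin, was -0.11 ± 0.05 in Tbx18 and -0.36 ± 0.19 in GFP. The groups overlapped, with an exact permutation p of 0.2 after adjustment over the 2 pairs.

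Most markers of heart muscle were called lower in Tbx18, as were the 5 plaque genes that fell, by unlike amounts. Of 11 tested cardiomyocyte markers 10 were called lower, and the median log2 fold change of the 11 was -1.10. Myh6 was also lower, by 0.41 on the log2 scale and without overlap, but was not called (limma adjusted p = 0.0583). The summed counts of the list ran from 676400 to 701530 in Tbx18 libraries and from 1375600 to 1513400 in GFP libraries, with no marker at 0. Most fibroblast, epithelial and mesothelial markers were called higher in Tbx18, and the other lists were mixed. The counts of each marker list, that of heart muscle included, are to be read beside the shares of all genes tested. These were 23.5% called lower and 22.5% called higher. Of 10 fibroblast markers 9 rose, with sums of 516230 to 600380 in Tbx18 and 240630 to 280600 in GFP, and of 8 tested epithelial and mesothelial markers 7 rose, with sums of 3626 to 4361 in Tbx18 and 643 to 885 in GFP. In that list Cdh1 and Cldn7 were at 0 in every GFP library and at 0 in no Tbx18 library. Of 10 endothelial markers 5 rose, 1 fell and 4 were not called, with sums of 2697 to 2813 in Tbx18 and 1818 to 2932 in GFP. Of 9 macrophage markers 3 rose and 6 were not called, with sums of 1711 to 2352 in Tbx18 and 1354 to 2505 in GFP. Of 8 smooth muscle markers 4 rose and 3 fell, with sums of 157310 to 163120 in Tbx18 and 195030 to 210770 in GFP. Without Des, desmin, which heart muscle also makes, the direction of the sum turned. The other 7 summed to 112820 to 123020 in Tbx18 and 74964 to 111510 in GFP, a sum chosen after seeing the values. Its largest part was Acta2, which overlapped between groups and was not called (limma adjusted p = 0.24). Of the 7, 4 were called higher and 2, Cnn1 and Myocd, lower. The part of the cell mixture in the fold changes of the plaque genes was not tested.

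Set against heart muscle markers, the plaque genes differed among themselves. The scale here is the log2 count of a gene minus the mean log2 count of the 11 markers in the same library, and that mean was itself 1.06 lower in Tbx18, at 14.8 in Tbx18 and 15.8 in GFP. On this scale Dsc2 averaged -6.17 ± 0.08 in Tbx18 and -6.06 ± 0.11 in GFP, and Nrap -2.71 ± 0.09 in Tbx18 and -2.73 ± 0.23 in GFP, with overlapping groups for both. Pkp2 was lower in Tbx18 by 0.61, at -3.81 ± 0.08 in Tbx18 and -3.20 ± 0.07 in GFP, and Ctnna1 lower by 0.17, at -0.90 ± 0.04 in Tbx18 and -0.73 ± 0.11 in GFP. Jup and Tjp1 were higher, Jup at -1.99 ± 0.07 in Tbx18 and -3.34 ± 0.18 in GFP and Tjp1 at -2.79 ± 0.13 in Tbx18 and -3.46 ± 0.23 in GFP. Any gene that fell by less than the marker mean is higher on this scale, which holds for most genes. Only 3.93% of all genes tested had a log2 fold change below that of Nrap, -1.03. The groups did not overlap for these 4 genes. For Ctnna1 the nearest libraries were close, at -0.86 in Tbx18 and -0.80 in GFP. The share of all genes without overlap on this scale was not computed. No test was made on this scale, whose markers are themselves genes that changed.

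**Figure D3:**
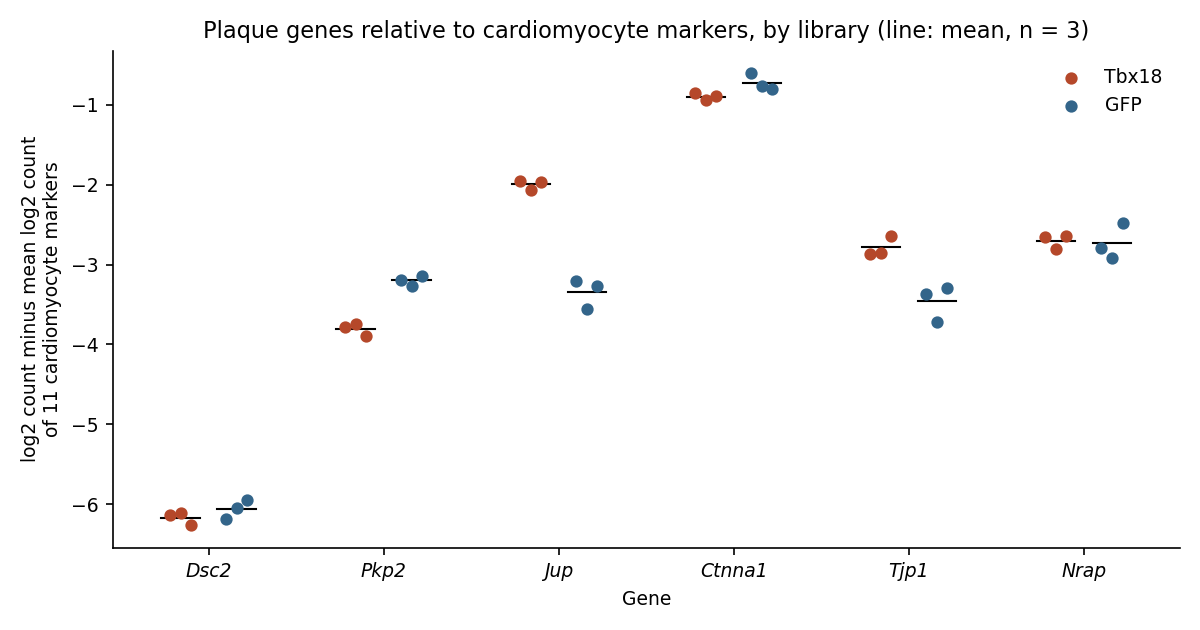
Log2 normalized count of each plaque gene minus the mean log2 count of 11 cardiomyocyte markers in the same library (vertical axis), for the 3 Tbx18 libraries (left of each pair) and the 3 GFP libraries (right), with lines at the means. Dsc2 and Nrap overlap between groups, Pkp2 and Ctnna1 are lower in Tbx18, and Jup and Tjp1 are higher. Any gene that fell by less than the marker mean is higher on this scale. Heights are not comparable between genes, since counts are not per length.

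The partners of the plaque genes were taken from 4 lists of junction genes holding 70 symbols, of which 59 had a row beside the members and 52 were tested; Cdh1, Cdh5 and Des among them are also in the marker lists above. In Tbx18 22 of the 52 fell, 11 rose and 19 were not called, with a median log2 fold change of -0.08. Over all genes tested 23.5% were called lower and 22.5% higher, and the counts of each list below are to be read beside these shares. With equal reads 17 fell and 18 rose and the median was 0.18, against 0.27 for all genes.

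Among 5 other desmosome genes tested, 3 fell, 1 rose and 1 was not called. Perp, a tetraspan membrane protein of desmosomes, fell 4.60-fold to 397 ± 23.3 counts in Tbx18, against 1828 ± 291 in GFP (-2.19 on the log2 scale, SE 0.12, limma adjusted p = 3.14e-06). Desmin, encoded by Des, the muscle intermediate filament protein that desmosomes anchor, fell 2.53-fold, and Kazn, kazrin, fell 1.81-fold. Periplakin, encoded by Ppl, a plakin best known from epithelia, was the gene that rose, with 122 ± 10.9 counts in Tbx18 and 34.6 ± 4.38 in GFP. Pkp1, the plakophilin best known from epithelia, had 778 ± 71.1 counts in Tbx18 and 895 ± 57.8 in GFP and was not called (log2 fold change -0.20, SE 0.10, limma adjusted p = 0.121).

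Among 15 tested cadherin and catenin partners, 4 fell, 5 rose and 6 were not called, with a median log2 fold change of 0.05. N-cadherin, encoded by Cdh2, the classical cadherin of the heart muscle disc, fell 1.75-fold to 10674 ± 736 counts in Tbx18, against 18679 ± 1200 in GFP (log2 fold change -0.81, SE 0.09, limma adjusted p = 0.000126). Cdh11, a cadherin of mesenchymal cells, rose 3.60-fold and Cdh5, the endothelial cadherin, 1.86-fold. The Cdh5 call was lost without Tbx18 replicate 3 (limma adjusted p = 0.0968) and without an intensity trend (0.0619), and adjusted p ran from 0.00375 to 0.0968 over its alternatives. Of the armadillo proteins in this list, beta-catenin and p120-catenin were not called, and 2 relatives of p120-catenin, Arvcf and Ctnnd2, were called higher. Ctnnb1 had 7681, 7664 and 7285 counts in Tbx18, against 7973, 7270 and 6720 in GFP (0.05 on the log2 scale, SE 0.09, limma adjusted p = 0.69), and it was called higher with equal reads and after quantile normalization, by 0.31 and 0.32. Ctnnd1, p120-catenin, had 4864 ± 321 counts in Tbx18 and 4368 ± 648 in GFP, and Vcl, vinculin, which binds alpha-catenin under load, had 14652 ± 623 in Tbx18 and 15314 ± 1813 in GFP. Arvcf had 1117, 1125 and 1064 counts in Tbx18, against 753, 711 and 856 in GFP (0.51 on the log2 scale, SE 0.09, limma adjusted p = 0.00183). The groups did not overlap, and Arvcf was called higher in all 19 alternatives. Ctnnd2, delta-catenin, best known from nerve cells, had low counts of 15.6, 29.7 and 14.9 in Tbx18, against 1.06, 13.6 and 2.30 in GFP (2.12, SE 0.69, limma adjusted p = 0.0295). The Ctnnd2 call was lost after quantile normalization (limma adjusted p = 0.172) and without Tbx18 replicate 1 (0.0588), Tbx18 replicate 3 (0.0647), GFP replicate 1 (0.0566) or GFP replicate 3 (0.0787). Without Tbx18 replicate 2, and with a minimum mean of 50, Ctnnd2 was under the mean filter and was not tested, which left 17 alternatives. Arvcf and Ctnnd2 were chosen after their values were seen.

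Among 12 tested partners of the zonula occludens proteins, 4 fell, 3 rose and 5 were not called. Cgnl1, paracingulin, fell 2.75-fold and Magi1, a membrane scaffold, 1.78-fold, while F11r, the junctional adhesion molecule A, rose 2.01-fold.

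Among 20 tested scaffolds of the disc and of the lateral anchorage sites, 11 fell, 2 rose and 7 were not called, with a median log2 fold change of -0.40. Gcom1, a combined locus that includes the gene of the disc protein myozap, fell 3.80-fold. Xirp2, a Xin actin-binding repeat protein of the disc, fell 2.71-fold to 7184 ± 708 counts in Tbx18, against 19447 ± 1760 in GFP, and Csrp3, the muscle LIM protein, fell 2.66-fold. The 2 that rose were Lima1, an actin cross-linking LIM protein, by 1.21 on the log2 scale, and Tmem43, a nuclear envelope protein, by 0.32. Tmem43, Lima1, Ppl, Pkp1, Ctnnd1 and Vcl were named after their values were seen. Gja1, the gap junction protein connexin-43, which shares the disc with these genes, had 3206 ± 432 counts in Tbx18 and 20488 ± 1518 in GFP, a log2 fold change of -2.68.

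**Figure D4:**
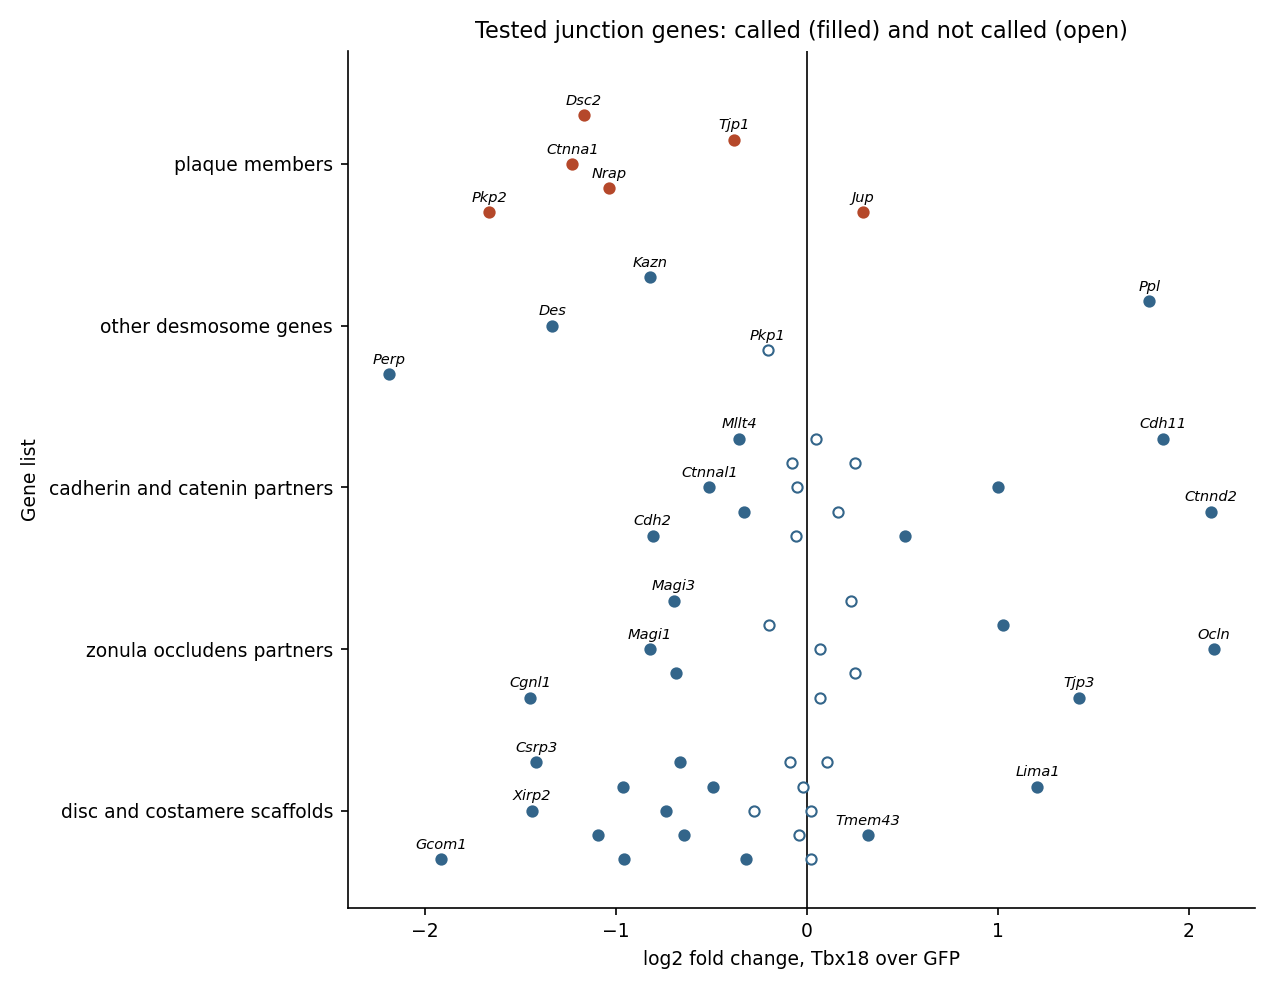
Log2 fold change, Tbx18 over GFP (horizontal axis), of every tested gene of the plaque members and the 4 partner lists (rows), filled where limma called it at an adjusted p under 0.05 and open where it did not; vertical offsets only separate the points, and Cdh1, at 0 in GFP, is left out. The plaque members lie at -1.66 to 0.30, and each of the other lists spreads to both sides of 0.

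The genes whose pattern over the 6 libraries was most like that of the 2 extremes were found by the root mean square difference of log2 values, each centred on its own mean, among 9228 other genes averaging 100 counts or more. For Pkp2 these were Mtfp1, a mitochondrial fission protein, at a difference of 0.06, Clic5, a chloride intracellular channel protein, at 0.08, and Tmeff1, a transmembrane protein with follistatin-like domains, at 0.09. For Jup these were Anapc2, a subunit of the anaphase-promoting complex, at 0.02, Colgalt1, a collagen galactosyltransferase, at 0.02, and Rnf145, a ubiquitin ligase, at 0.04. The likeness covers the difference between groups and the deviations of single libraries together.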

How the data were processed

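The deposited signal was a table of DESeq2-normalized counts, per the file headers, in which the authors divided gene read counts by 1 size factor per library. Tools listed in the submitters' processing notes, with no role stated, were DESeq2 1.10.1, HTSeq, STAR 2.4.0g1 and bcl2fastq 2.17.1.14. The build, the annotation and whether counting used strand are not given in these sources, so reads of overlapping genes are less certain. Per the labels' protocols, a stranded mRNA kit was used on 100 ng of RNA. All values (100%) were whole multiples of a column's smallest step (tolerance 0.01), which gave back 17074483 to 19800300 reads per library. The pairs of replicates differed by more than sampling noise.

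Tests were run in R 4.3.3 by limma 3.58.1 on log2(count + 1) with the trend option, genes with a mean of at least 10, no block, both groups sharing 1 variance per gene, and Benjamini-Hochberg adjustment over all 11230 genes. Ratios used exact permutation tests (scipy 1.17.1). Alternatives covered scalings, pseudocounts of 0.5 and 8, filters, limma options, count tests of the recovered reads (DESeq2 1.42.0, edgeR 4.0.16), a replicate block and each library left out. The tests were tried on simulated data. The members and lists were chosen with earlier results of these data known. Named by rule were all members, the ratio partners, the 3 called genes per list with the largest change and a mean of at least 100, the 3 genes most like each extreme, Tbx18, Gja1 and Cdh2; 1 ratio partner is not reported here.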

Additional observations from a re-analysis of the deposited data

How the results depend on the processing

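Pkp2, Ctnna1, Dsc2 and Nrap kept their direction and their call in all 19 alternatives, with log2 fold changes of -1.72 to -1.40, -1.26 to -0.85, -1.27 to -0.90 and -1.11 to -0.77. Tjp1 was not called with equal reads (-0.12) or quantile normalization (-0.15); equal reads moved the median of all genes from 0.01 to 0.27, and the cause under quantile normalization was not tested. With equal reads 18 other junction genes rose in place of 11, and over all genes 1351 fell and 4793 rose in place of 2639 and 2525. With 1 library left out, the log2 fold change ran from 0.23 to 0.34 for Jup and from -0.48 to -0.29 for Tjp1, and the count of plaque genes called higher from 0 to 1; these fits have fewer samples. In the same fits Ctnnb1 ran from -0.0138, a reversal when GFP replicate 3 was left out, to 0.11, and Dsc2 over Ctnna1 reversed to -0.060 when GFP replicate 1 was.

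Over 11230 genes the deviations of same-numbered libraries from their group means had correlations of -0.005, 0.15 and 0.02 for numbers 1, 2 and 3. Those of unlike-numbered libraries ran from -0.137 to 0.113. With deviations from means of 3 libraries, these values cannot tell whether same-numbered libraries share an isolation. With the replicate block 5 plaque genes fell and 1 rose, as without it, and 2628 genes fell and 2527 rose. The limma adjusted p of Tjp1 was 0.00656 with the block and 0.0139 without it, and that of Jup 0.0198 and 0.0188. The design holds 3 libraries per group, and the GFP libraries spread more, with a median SD of log2 values of 0.10 in Tbx18 and 0.17 in GFP.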

Other observations

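Some junction genes read at low levels had higher values in Tbx18, and others did not. Ocln, occludin, had 96.9 ± 4.13 normalized counts in Tbx18 and 23.0 ± 9.82 in GFP (SD, n = 3 each), and Tjp3, zonula occludens-3, had 72.1 ± 2.21 in Tbx18 and 26.5 ± 5.78 in GFP. Their log2 fold changes were 2.13 and 1.43 (limma adjusted p = 0.000648 and 0.000752). Cdh1, E-cadherin, had 42, 32 and 55 recovered reads in the Tbx18 libraries and 0 in each GFP library. Ctnna2, the alpha-catenin of nerve cells, had 8, 6 and 7 reads in the Tbx18 libraries and 0 in each GFP library, where a count of 0 allows up to 3 reads; it was too low to be tested. Pkp3 and Evpl, a plakophilin and a plakin of epithelia, averaged 7.50 ± 3.97 and 7.42 ± 1.95 counts in Tbx18 and 0.412 ± 0.713 and 1.18 ± 1.24 in GFP and were not tested. Dsc3 and Dsg3, desmosomal cadherins of epithelia, had lower means in Tbx18, of 8.03 ± 1.77 and 0.634 ± 0.554 counts, against 11.8 ± 1.97 and 1.59 ± 1.91 in GFP, and were not tested, and Marveld2, tricellulin, was not called, at 23.4 ± 0.364 in Tbx18 and 20.6 ± 7.34 in GFP. These genes were picked after their values were seen, and no list of them was tested. Epithelial and mesothelial markers were higher in the same libraries, and their part in these values was not tested.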
